A study of Arabidopsis thaliana with 36 samples.

Results

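The psaA-psaB-rps14 operon and the gene ycf3 lie beside each other in the plastid genome of Arabidopsis thaliana, and binding of the plastid RNA polymerase was followed across them. They were taken by their annotated positions, as 4 of 113 plastid genes, together with the spacer between psaA and ycf3, 1 of 88 intergenic spacers of at least 100 bp. In the coordinates of the TAIR10 plastid sequence, rps14 (ArthCp020) spans 36938 to 37240, psaB (ArthCp021) 37375 to 39579, psaA (ArthCp022) 39605 to 41857 and ycf3 (ArthCp023) 42584 to 44591. The spacer takes up 41858 to 42583, which is 726 bp, and the whole stretch covers 7654 bp. The gene table gives no strand. As textbook knowledge, all 4 genes are read toward falling coordinates, so that ycf3 comes first, the spacer leads into psaA, and rps14 ends the operon. The annotated span of ycf3 includes its introns.

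PsaA and PsaB are the large paired subunits at the core of photosystem I, which carry its reaction centre chlorophylls. Rps14 is a protein of the small subunit of the plastid ribosome, and Ycf3 is an assembly factor of photosystem I. Most photosynthesis genes are transcribed by the plastid-encoded RNA polymerase, of which RpoB is a core subunit. Nucleus-encoded sigma factors bring this polymerase to its promoters, and SIG2 is known above all for several tRNA genes.

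The assay was ptChIP, in which DNA bound to a protein is recovered from crosslinked chloroplasts with an antibody and sequenced, beside unselected DNA of such preparations (input). Leaf samples were 14-day-old wild type Col0 plants grown on soil, either kept 24 h in total darkness (Night) or collected 2 h after the light came on (Day), and the antibody was against RpoB. Seedling samples were 4-day-old plants grown on plates in continuous light, of the lines sig2-2, chl27 and chlm and of Col0. The sig2-2 line is named for SIG2, and chl27 and chlm for enzymes of chlorophyll synthesis, the cyclase subunit CHL27 and the methyltransferase CHLM. Those nuclear genes lie outside the coverage tables, so no line could be checked on its own gene. The seedling labels name no antibody and give the genotype as wild type for each line, so lines were read from titles and cell line entries, 1 of which has the hyphen of sig2-2 misplaced. Each plant group had 3 ChIP and 3 input libraries, 36 in all, made from pooled leaves or pooled seedlings. The labels do not say whether replicates were separate growths, so p-values measure the spread between these libraries.

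Values are mean coverage over a gene, spacer or window. They are given either relative to the plastid average of the library, set to 1, or as log2 ChIP/input, in which the average of the 3 inputs of the same plants is subtracted on the log2 scale. This value shows how polymerase signal was spread along the plastid genome and not how much was bound in a chloroplast. A log2 difference was called when its adjusted p, from limma with Benjamini-Hochberg adjustment over all genes, spacers or windows of the table, was under 0.05. Mean coverage per position ran from 102 to 480 in Night ChIP, from 425 to 1039 in Day ChIP and from 1132 to 3165 in seedling libraries, and leaf inputs lay between 1017 and 1395. How many reads stand behind a value is not known. No gene differed between inputs in any of the 4 comparisons between plant groups (0 of 113 by limma, with 1 gene at an unadjusted p under 0.05 between Night and Day and 0 in the others).

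The profile of the locus had the same outline in all 6 plant groups. A single sharp peak stood in the spacer just upstream of psaA. Coverage in psaA formed a plateau without a clear slope, and that in psaB was close to that in psaA. rps14 lay above that plateau in all groups but sig2-2, and ycf3 lay below the plateau. Smoothed over 51 bp, the summit lay 182 to 196 bp upstream of the start of psaA in each of the 18 ChIP libraries, at positions 42039 to 42053. Further upstream in the spacer the signal dropped below input, to a lowest log2 value of −1.43 ± 0.44 in Night, −2.28 ± 0.63 in Day, −0.84 ± 0.21 in sig2-2, −1.05 ± 0.28 in chl27, −1.24 ± 0.31 in chlm and −1.63 ± 0.27 in Col0 (SD, n = 3 each).

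**Figure D1:**
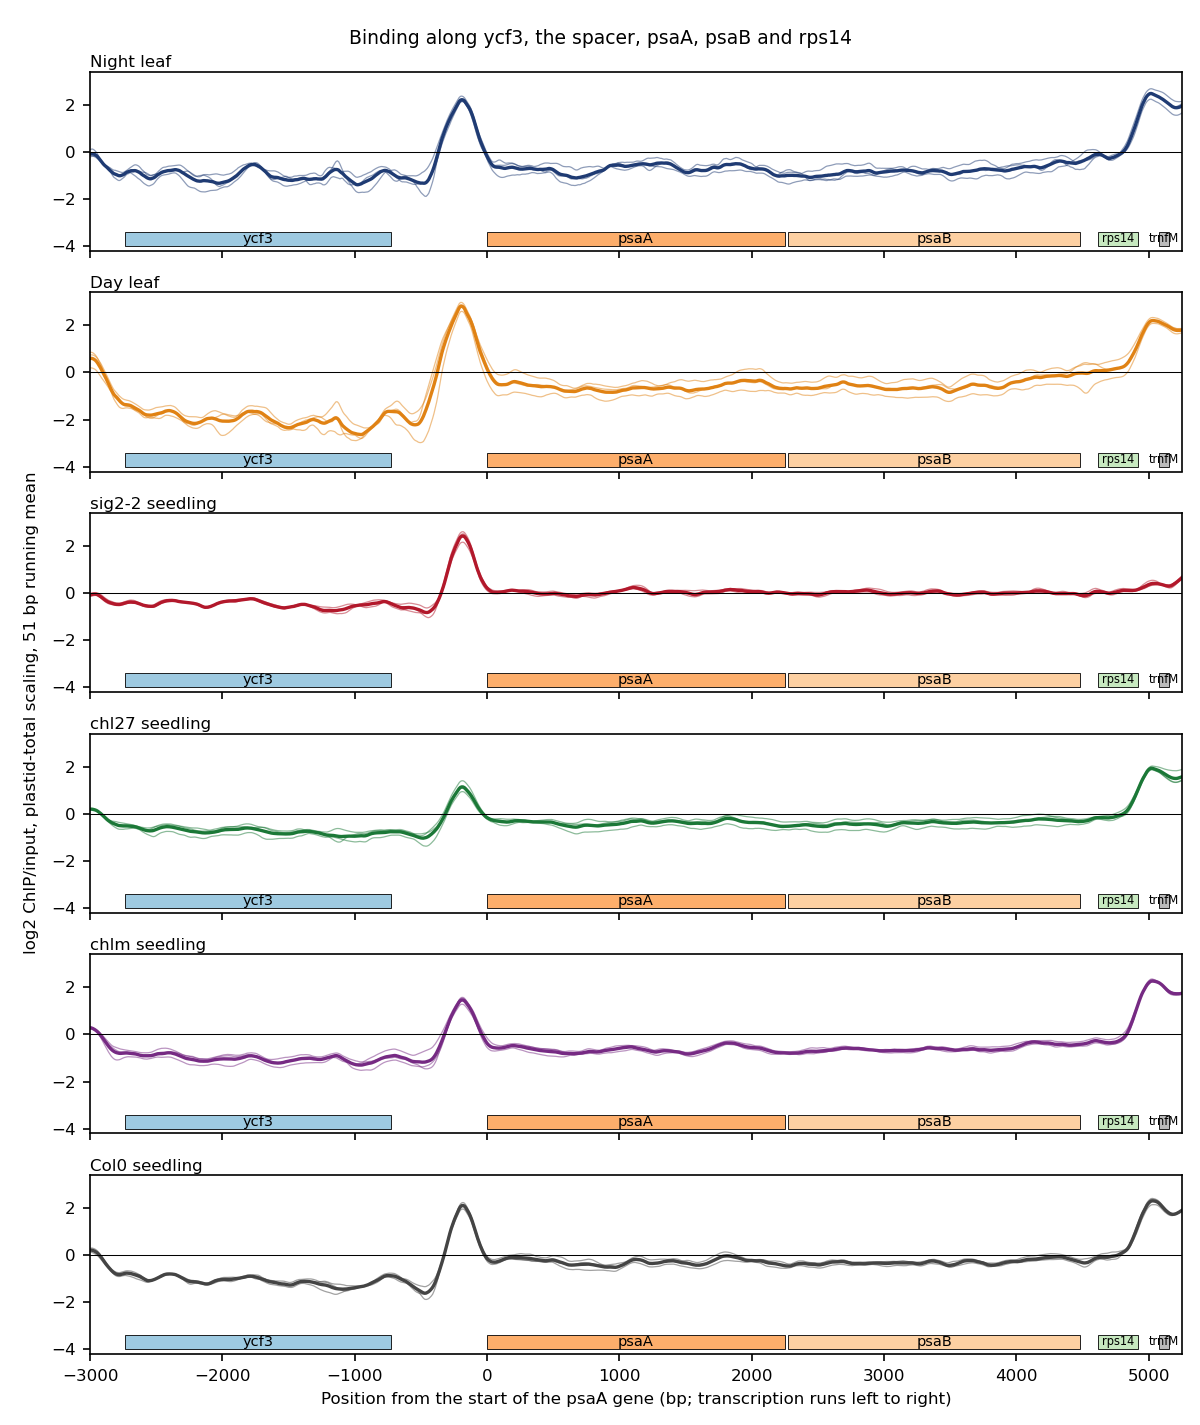
Log2 ChIP/input along the locus (vertical axis, 51 bp running mean) against position from the start of psaA in bp (horizontal axis), with 1 panel for each plant group; thin lines are the 3 replicates and the thick line is their mean. Coloured boxes mark the genes. The spacer peak just left of 0, the plateau over psaA and psaB and the low signal over ycf3 recur in each panel, and the right edge reaches trnfM.

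The spacer peak was the place of highest signal in the locus. In the 100 bp window 101 to 200 bp upstream of psaA, which held the highest mean of the 7 spacer windows in every plant group, relative coverage was 3.77, 4.24 and 3.62 in Night ChIP and 6.09, 6.39 and 4.97 in Day ChIP. It was 5.06, 3.82 and 4.78 in sig2-2, 1.77, 2.40 and 1.92 in chl27, 2.13, 2.56 and 2.56 in chlm, and 3.83, 3.22 and 3.65 in Col0 ChIP. All ChIP libraries therefore lay above the 18 inputs, where this window held 0.917 to 1.08. Day libraries were above all Night libraries, chl27 and chlm libraries were below all Col0 libraries, and sig2-2 overlapped Col0.

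Expressed as log2 ChIP/input, the peak window stood at 1.98 ± 0.12 in Night, 2.49 ± 0.19 in Day, 2.2 ± 0.21 in sig2-2, 0.98 ± 0.23 in chl27, 1.27 ± 0.15 in chlm and 1.88 ± 0.13 in Col0 (SD, n = 3 each). Among the 1296 windows of the plastid genome it ranked 43rd from the top in Night, 7th in Day, 4th in sig2-2, 166th in chl27, 158th in chlm and 76th in Col0. The share of windows above input was 22.8% in Night, 20.1% in Day, 19% in sig2-2, 22.8% in chl27, 23.8% in chlm and 23% in Col0.

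**Figure D2:**
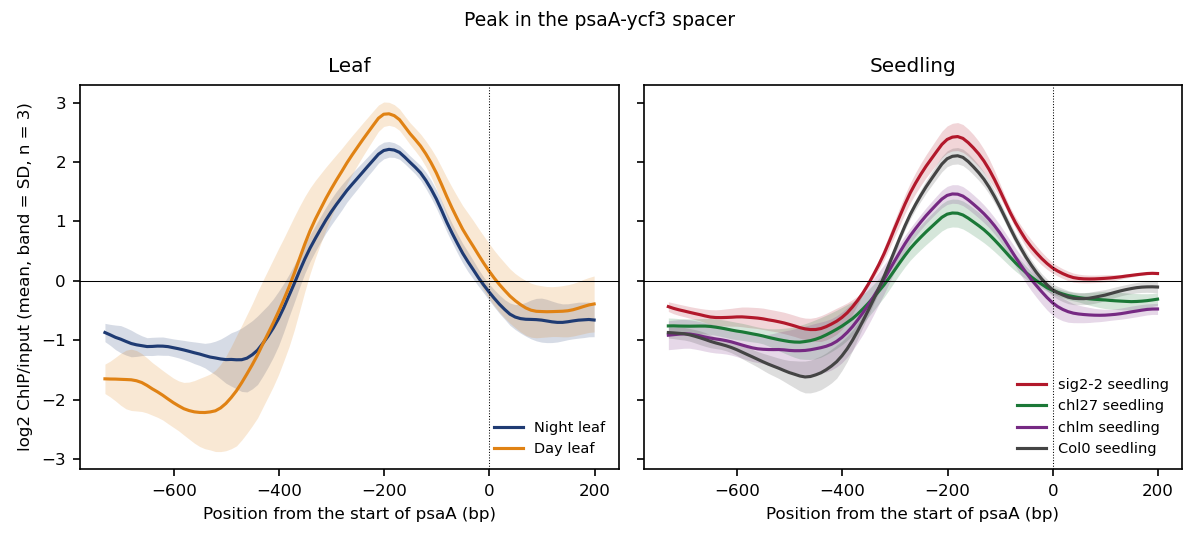
Log2 ChIP/input (vertical axis) against position from the start of psaA in bp (horizontal axis), in leaf groups (left) and seedling groups (right); lines are means of 3 replicates and bands their SD. The summit is at the same place in all groups, and its height in chl27 and chlm is below that of Col0.

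Taken over its whole length, the spacer was above input in both leaf groups, in sig2-2 and in Col0. Its log2 ChIP/input was 0.79 in Night (limma adjusted p 2.05e-04), 1.23 in Day (adjusted p 1.49e-06), 0.80 in sig2-2 (adjusted p 2.91e-11) and 0.42 in Col0 (adjusted p 1.11e-05). On this scaling it was 0.02 in chl27 (adjusted p 0.837) and 0.13 in chlm (adjusted p 0.126). Both passed after centring each library on its median gene, at 0.39 in chl27 (adjusted p 7.97e-05) and 0.73 in chlm (adjusted p 3.89e-09). With scaling outside the inverted repeats the spacer was at 0.13 in chl27 (adjusted p 0.0993) and passed at 0.30 in chlm (adjusted p 3.62e-04). Of the 88 spacers, the share above input was 44.3% in Night, 35.2% in Day, 31.8% in sig2-2, 40.9% in chl27, 42.0% in chlm and 39.8% in Col0.

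Over input, 3 of the 4 genes were called in Night, where 88.5% of all 113 genes were, 4 in Day (92.9%), 1 in sig2-2 (83.2%), 3 in chl27 (89.4%), 3 in chlm (91.2%) and 4 in Col0 (92.0%), so a call over input does not set them apart. psaA, the first gene of the operon, was below the plastid average in the ChIP libraries of 5 groups and near it in sig2-2. Its relative coverage was 0.697, 0.562 and 0.690 in Night and 0.940, 0.760 and 0.593 in Day ChIP libraries. In seedling ChIP libraries it was 1.03, 1.06 and 0.987 in sig2-2, 0.685, 0.822 and 0.843 in chl27, 0.676, 0.702 and 0.616 in chlm, and 0.876, 0.730 and 0.808 in Col0. The inputs held 0.957 to 1.16, and only the sig2-2 libraries reached this range.

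On the log2 scale, psaA was −0.71 in Night (limma adjusted p 6.25e-06), −0.59 in Day (adjusted p 6.18e-05), −0.38 in chl27 (adjusted p 1.26e-05), −0.64 in chlm (adjusted p 1.89e-10) and −0.28 in Col0 (adjusted p 6.35e-04), whereas 0.04 in sig2-2 did not pass (adjusted p 0.619). The sign in Day and Col0 depends on the scaling, since after centring each library on its median gene psaA was at 0.35 in Day and 0.25 in Col0, and with scaling outside the inverted repeats it was −0.20 and −0.06 there, both past no threshold. In sig2-2 psaA was above input under both other scalings, at 0.23 when centred (adjusted p 7.06e-05) and 0.15 outside the repeats (adjusted p 0.0427). Centred, psaA lost its call in chl27, at −0.01 (adjusted p 0.855), and in chlm, at −0.05 (adjusted p 0.334). Across all genes the median was −0.35 in Night, −0.85 in Day, −0.17 in sig2-2, −0.36 in chl27, −0.59 in chlm and −0.50 in Col0, and psaA ranked between 40th, in sig2-2, and 71st, in Night, of 113 genes.

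psaB, which follows psaA after 25 bp, tracked it closely. Its log2 ChIP/input was −0.79 in Night, −0.52 in Day, 0.01 in sig2-2, −0.39 in chl27, −0.60 in chlm and −0.30 in Col0, and centring reversed the Day and Col0 values here too, to 0.43 and 0.24. Centring also brought psaB in sig2-2 past the threshold, at 0.21 (limma adjusted p 4.44e-04), and ended its calls in chl27 (adjusted p 0.722) and chlm (adjusted p 0.987). The difference of psaA minus psaB within a library, which no scaling can change, was over input 0.08 in Night, −0.08 in Day, 0.03 in sig2-2, 0.01 in chl27, −0.05 in chlm and 0.02 in Col0. ChIP libraries overlapped inputs in this difference in every group except Day, where the exact two-sided permutation p was 0.1, the smallest that 3 against 3 libraries allow. Over the 6 group means, psaB was the gene most like psaA of all, with a root mean square difference of 0.051 log2 units, and outside the locus the nearest were psbJ at 0.20, psbT at 0.23 and petG at 0.26.

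Within psaA the equal parts nearer the start and nearer the end differed little, over input by −0.07 to −0.01 log2 units in the 6 groups, and ChIP libraries overlapped inputs in each. Its single windows varied more, from −1.08 to −0.48 in Night, −0.84 to −0.29 in Day and −0.13 to 0.20 in sig2-2. They ran from −0.55 to −0.21 in chl27, −0.81 to −0.37 in chlm and −0.51 to −0.06 in Col0. In psaB the part nearer the start was lower than the part nearer the end, by −0.20 in both Night and Day, −0.12 in chl27, −0.14 in chlm and −0.10 in Col0, each without overlap between ChIP and input libraries (exact permutation p 0.1), while in sig2-2 the difference was 0.01 and libraries overlapped.

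rps14, at the end of the operon, stood above the plastid average in every ChIP library, with the highest mean in Day, at 1.48. Its relative coverage was 1.33, 1.17 and 1.13 in Night, 1.85, 1.48 and 1.12 in Day, 1.05, 1.11 and 1.08 in sig2-2, 1.04, 1.05 and 1.18 in chl27, 1.05, 1.2 and 1.03 in chlm, and 1.11, 1.18 and 1.29 in Col0 ChIP libraries. It passed the test over input at 0.38 in Day (limma adjusted p 0.00653) and at 0.21 in Col0 (adjusted p 0.00584). It did not at 0.23 in Night, 0.07 in sig2-2, 0.09 in chl27 and 0.03 in chlm, although after centring on the median gene all 4 of these passed, between 0.27 and 0.63, and with scaling outside the inverted repeats all but Night passed, between 0.19 and 0.20.

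The signal in rps14 was uneven in all groups but sig2-2. Its window at 36958 to 37057, on the side of trnfM, had a log2 ChIP/input of 0.46 ± 0.21 in Night, 0.51 ± 0.36 in Day, 0.11 ± 0.06 in sig2-2, 0.28 ± 0.13 in chl27, 0.26 ± 0.14 in chlm and 0.40 ± 0.07 in Col0 (SD, n = 3 each). The other 2 windows of rps14 lay lower, at −0.19 and −0.17 in Night, 0.08 and 0.16 in Day, and 0.04 and 0.05 in sig2-2. They were at −0.17 and −0.12 in chl27, at −0.31 for both in chlm, and at −0.10 and −0.02 in Col0. Of these, 1 in chl27 and 2 in chlm were called below input, where 70.1% and 71.3% of all windows were. With the median coverage in place of the mean, the sign of rps14 reversed to −0.15 in Night, −0.10 in chl27, −0.30 in chlm and −0.001 in Col0. The Day value of rps14 then lost its call, at 0.17 (limma adjusted p 0.177), and in chlm rps14 was called below input (adjusted p 3.41e-04). The spacer next to it, toward the tRNA gene trnfM (ArthCt099, 36704 to 36777), was at 2.26 in Night, 1.96 in Day, 0.33 in sig2-2, 1.72 in chl27, 2.05 in chlm and 2.06 in Col0.

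ycf3 was the least bound of the 4 genes. Its relative coverage was 0.486, 0.427 and 0.554 in Night and 0.245, 0.297 and 0.226 in Day ChIP libraries. In seedling ChIP libraries it was 0.752, 0.763 and 0.775 in sig2-2, 0.535, 0.649 and 0.656 in chl27, 0.525, 0.556 and 0.447 in chlm, and 0.498, 0.468 and 0.494 in Col0. In the inputs it was 0.957 to 1.07, above every ChIP library.

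Its log2 ChIP/input was −1.01 in Night, −1.96 in Day, −0.47 in sig2-2, −0.75 in chl27, −1.02 in chlm and −1.09 in Col0, with a largest limma adjusted p of 2.02e-06, and the sign held under the other scalings. All 20 windows of ycf3 were below input in each of the 6 groups. The share of windows below input was 65.1% in Night, 69.8% in Day, 62.8% in sig2-2, 70.1% in chl27, 71.3% in chlm and 71.4% in Col0. Among the genes most like ycf3 over the group means were atpB at 0.084 and atpF at 0.089 log2 units.

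**Figure D3:**
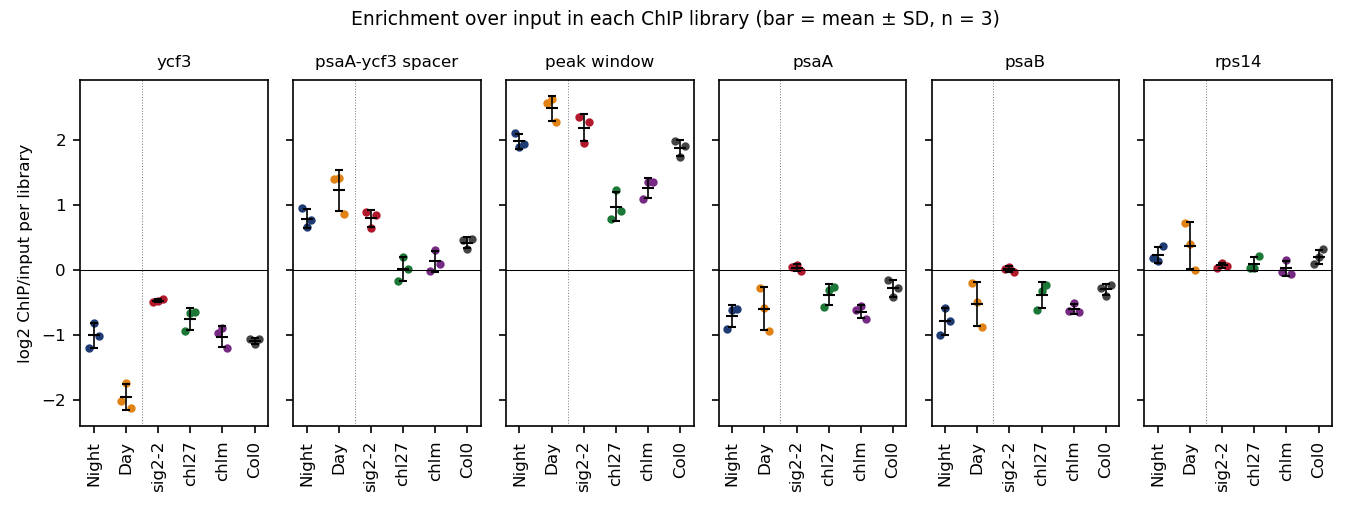
Log2 ChIP/input (vertical axis) of the 4 genes, the whole spacer and its peak window in each ChIP library, by plant group (horizontal axis); points are libraries and black bars the mean ± SD of 3. psaA and psaB have nearly the same pattern, ycf3 is below 0 in each library and the peak window is above 0 in each.

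The Night and Day groups ask whether binding differed after 24 h of darkness. ycf3 rose at Night, by 0.95 ± 0.18 log2 units (SE, limma adjusted p 3.07e-05), and all 20 of its windows rose, by 0.69 to 1.31, where 62.6% of all windows did. The peak window fell by 0.51 ± 0.16 (adjusted p 0.0109), where 9.18% of windows did, with the values 1.95, 2.12 and 1.89 in Night against 2.57, 2.64 and 2.27 in Day, but without replicate 1 the adjusted p was 0.147 and without replicate 2 it was 0.0510. Its neighbour toward ycf3 fell by 0.53 (adjusted p 0.0231). The peak window was picked by its Day value, a choice that the adjusted p does not cover, and it was also the highest window of the spacer in Night.

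The other members gave no call at Night on this scaling. The change was −0.11 ± 0.18 for psaA (limma adjusted p 0.593), −0.27 ± 0.18 for psaB (adjusted p 0.192), −0.14 ± 0.18 for rps14 (adjusted p 0.497) and −0.43 ± 0.22 for the whole spacer (adjusted p 0.106), where 7.95% of spacers fell. Without replicate 3 psaB was at −0.57 (adjusted p 0.0120), and without replicate 2 psaA was at 0.018. Thus 1 of 4 genes was called, all genes giving 70.8%, with 66 higher and 14 lower, and the median gene changing by 0.53. Relative to that median, by centring, which moved it by −0.55, there were 35 higher and 37 lower genes, and the members separated: psaA was at −0.66 (adjusted p 0.00238), psaB at −0.82 (adjusted p 6.01e-04), rps14 at −0.69 (adjusted p 0.00205), the spacer at −0.99 (adjusted p 2.42e-04) and ycf3 at 0.40 (adjusted p 0.0290). Scaling outside the inverted repeats, which shifted the median by −0.44, gave the same 5 signs and calls. Between ChIP libraries alone, without inputs, psaB was at −0.39 (limma adjusted p 0.00801) and the spacer at −0.43 (adjusted p 0.0208), both called. In that contrast ycf3 was called at 0.94, and psaA at −0.22 (adjusted p 0.121) and rps14 at −0.27 (adjusted p 0.0515) were not.

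Differences within a library show the same narrowing free of scaling. psaA exceeded ycf3, over input, by 0.30 ± 0.10 in Night and 1.36 ± 0.33 in Day (SD, n = 3 each), and the spacer exceeded ycf3 by 1.80 ± 0.34 in Night and 3.18 ± 0.21 in Day. Neither pair of groups overlapped, and the exact two-sided permutation p was 0.1 for both, the smallest possible. In such comparisons between groups the mean of a group's inputs is subtracted, so SD, overlap and p hold the spread of ChIP libraries only. The spacer exceeded psaA by 1.5 ± 0.32 in Night and 1.82 ± 0.16 in Day, where libraries overlapped (exact permutation p 0.3). The Night ChIP libraries include the shallowest of the series, and the part depth has in these changes was not tested.

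In sig2-2 seedlings the peak upstream of psaA had a higher mean than in Col0, with overlapping libraries, and psaA, psaB and ycf3 lay closer to the plastid average. The change against Col0 was 0.32 ± 0.11 for psaA (SE, limma adjusted p 0.00526), 0.31 ± 0.11 for psaB (adjusted p 0.00646), 0.62 ± 0.11 for ycf3 (adjusted p 4.04e-06) and −0.13 ± 0.10 for rps14 (adjusted p 0.193). Of the 4 genes 3 were called higher, where 86.7% of all genes were called and 53.1% were higher. The psaA and psaB changes were 0.25 each without replicate 2, with adjusted p of 0.0861 and 0.0878.

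These directions rest on the scaling in part. The median gene changed by 0.36, and relative to it, by centring, psaA was at −0.02 (limma adjusted p 0.770), psaB at −0.03 (adjusted p 0.667) and rps14 at −0.47 (adjusted p 6.26e-05), while ycf3 stayed higher at 0.28 (adjusted p 2.77e-05). With scaling outside the inverted repeats all 4 genes were called, psaA at 0.22, psaB at 0.21 and ycf3 at 0.51 higher, and rps14 at −0.24 lower. By median coverage, on the plastid-total scaling, rps14 was at 0.08 over input in sig2-2 and −0.001 in Col0, so the direction of its change turned.

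The whole spacer rose by 0.37 ± 0.12 (limma adjusted p 0.00410), where 48.9% of spacers rose, and the peak window by 0.31 ± 0.15 (adjusted p 0.0438), where 69.8% of windows rose. Centred, these were 0.03 (adjusted p 0.777) and −0.03 (adjusted p 0.896), and the peak window lost its call without replicate 1 (adjusted p 0.151) and without replicate 3 (adjusted p 0.149). The peak windows were among the few strongly bound windows called higher. Of the 40 windows of the genome with a log2 ChIP/input over 2 in Day leaves, 33 fell in sig2-2, with a median change of −0.76, and 5 rose, among them both that lie in this spacer. When centred, 34 of the 40 fell and none rose, and neither of the spacer windows was called. This group of windows was picked on leaf values, and no test was made of the spacer against it.

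Within the sig2-2 libraries the step between psaA and rps14 was absent. psaA minus rps14, over input, was −0.03 ± 0.05 in sig2-2 and −0.49 ± 0.20 in Col0, without overlap (exact permutation p 0.1). The window of rps14 on the trnfM side fell by 0.29 ± 0.11 (SE, limma adjusted p 0.0133), where 18.8% of windows did, and the trnfM-rps14 spacer beyond it fell by 1.73 ± 0.11 (adjusted p 2.10e-18). The other windows of rps14 did not fall, at 0.06 and 0.14, without a call. psaA exceeded ycf3 by 0.51 ± 0.07 in sig2-2 and 0.81 ± 0.09 in Col0 (SD, n = 3 each, no overlap, exact permutation p 0.1), and the spacer exceeded psaA by 0.76 ± 0.17 in sig2-2 and 0.71 ± 0.07 in Col0, with overlap (exact permutation p 0.6). With median in place of mean coverage the spacer was below psaA, at −0.31 in sig2-2 and −0.45 in Col0.

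In chl27 seedlings the peak upstream of psaA had the largest fall of any window in the plastid genome. The peak window stood at 0.79, 1.23 and 0.91 in chl27 against 1.99, 1.74 and 1.92 in Col0, a change of −0.90 ± 0.15 (SE, limma adjusted p 4.71e-04), the lowest of 1296 windows, of which 7.79% fell. The next window toward ycf3 changed by −0.71 (adjusted p 0.00238), the second lowest. The fall kept its call without any one replicate, at −1.08 to −0.79, and when centred, at −1.07 (adjusted p 8.33e-04). Falls were common among strongly bound windows. Of the 40 windows with a log2 ChIP/input over 2 in Day leaves, 19 fell in chl27, with a median change of −0.31, and 0 rose. When centred, 20 of the 40 fell. Both windows of this spacer were among those that fell. Again the group was picked on leaf values, and no test was made of the spacer against it.

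The spacer as a whole fell by 0.41 ± 0.12 (limma adjusted p 0.0106), 84th of 88 spacers from the top, of which 10.2% fell, though without replicate 3 the adjusted p was 0.0990. Windows 401 to 600 bp upstream, in the low flank, rose by 0.58 and 0.42 (adjusted p 0.0360 and 0.0210). Within libraries the spacer exceeded psaA, over input, by 0.40 ± 0.11 in chl27 and 0.71 ± 0.07 in Col0, and ycf3 by 0.77 ± 0.10 in chl27 and 1.51 ± 0.04 in Col0, neither with overlap (exact permutation p 0.1 for both). By median coverage the spacer was instead below psaA, at −0.24 in chl27 and −0.45 in Col0, and chl27 minus Col0 turned to 0.22, so the direction of that difference depends on which of the 2 is used.

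The genes themselves moved less in chl27. ycf3 rose by 0.34 ± 0.11 (SE, limma adjusted p 0.0122), with 15 of its 20 windows called, where 50.8% of windows rose, but the adjusted p was 0.209 without replicate 2 and 0.0936 without replicate 3. The change was −0.10 for psaA (adjusted p 0.439), −0.09 for psaB (adjusted p 0.461) and −0.11 for rps14 (adjusted p 0.335). So 1 of 4 genes was called, all genes giving 54.0%, 46 higher and 15 lower, a number that dropped to 0 without replicate 2. Centred, which moved the median by −0.16 and gave 35 higher and 28 lower, psaA was at −0.26, psaB at −0.26 and rps14 at −0.27, each past the threshold, and ycf3 at 0.18 (adjusted p 0.00762).

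In chlm seedlings the same place was again lowest in the genome, without a call. The peak window stood at 1.09, 1.36 and 1.36 in chlm against 1.99, 1.74 and 1.92 in Col0, and its change of −0.61 ± 0.15 (SE, limma adjusted p 0.0609) was the lowest of 1296 windows, of which 0.0% were called and 143 had an unadjusted p under 0.05. It was called with windows of 200 bp, at −0.50 (adjusted p 0.0307). The whole spacer changed by −0.29 ± 0.12 (adjusted p 0.220, 87th of 88, with no spacer called and 17 at an unadjusted p under 0.05). Between ChIP libraries alone, without inputs, the spacer changed by −0.33 (limma adjusted p 0.0323), and psaA gave no call at −0.27 (adjusted p 0.0818). The share of all spacers called that way was not counted.

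psaA had the lowest change of all 113 genes in chlm, at −0.36 ± 0.11 (SE, limma adjusted p 0.183), and psaB ranked 111th at −0.30 ± 0.11 (adjusted p 0.262). rps14 was at −0.18 (adjusted p 0.703) and ycf3 at 0.07 (adjusted p 0.978). No gene was called by limma (0 of 113, or 0.0%, with 8 at an unadjusted p under 0.05), and none of the 4 members. psaA did pass when libraries were centred, at −0.30 (adjusted p 0.0116), when scaled outside the inverted repeats, at −0.41 (adjusted p 0.0267), and among genes of at least 300 bp (adjusted p 0.0169). Within libraries psaA exceeded ycf3 by 0.38 ± 0.07 in chlm and 0.81 ± 0.09 in Col0, without overlap (exact permutation p 0.1), whereas the spacer exceeded psaA by 0.78 ± 0.15 in chlm and 0.71 ± 0.07 in Col0, with overlap (exact permutation p 0.6; by median coverage −0.03 in chlm and −0.45 in Col0). The 3 seedling comparisons share the Col0 libraries and are therefore not independent of each other, and leaf and seedling tables were never fitted together.

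**Figure D4:**
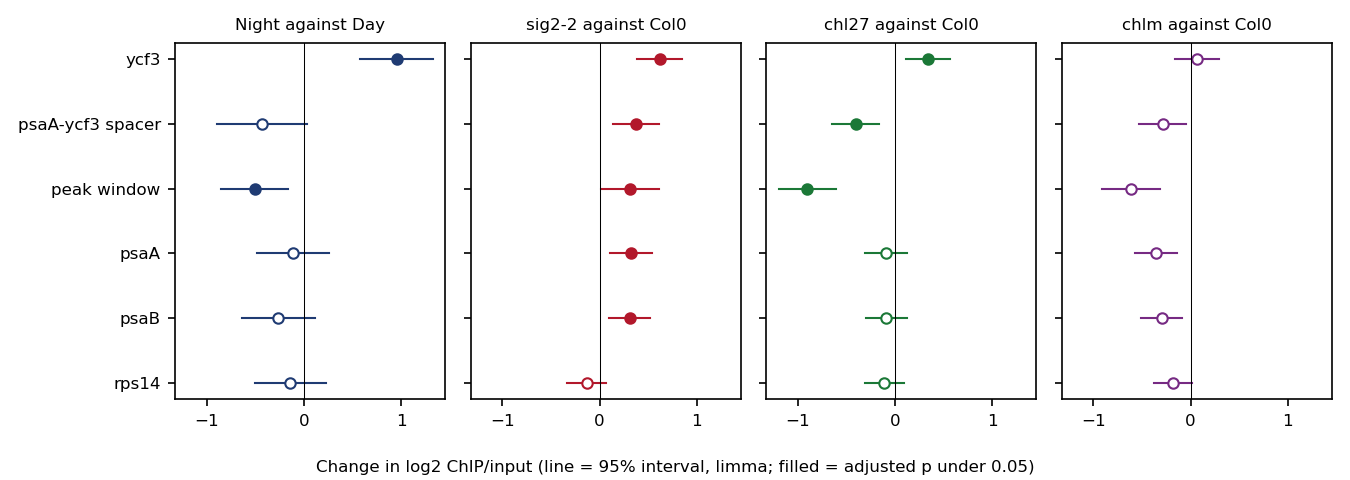
Change in log2 ChIP/input (horizontal axis) of the 4 genes, the whole spacer and its peak window in Night against Day and in each seedling line against Col0; points are limma estimates, lines their 95% intervals, and filled points have an adjusted p under 0.05. ycf3 is highest in all 4 panels, and the peak window is lowest in Night against Day, chl27 and chlm.

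**Figure D5:**
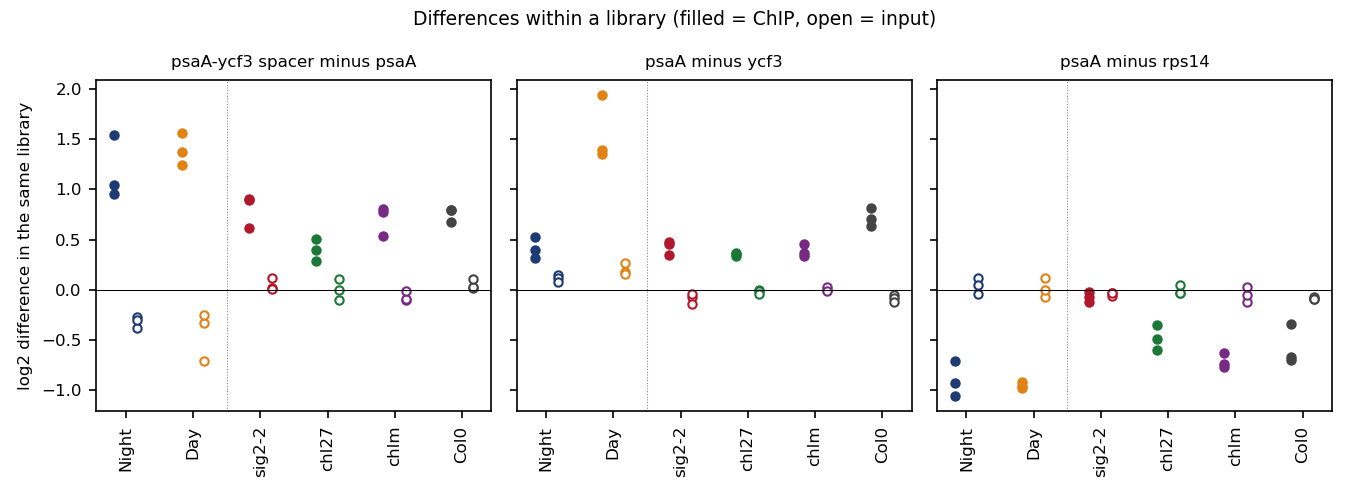
Difference of log2 coverage between 2 members in the same library (vertical axis) by plant group (horizontal axis), with ChIP libraries filled and inputs open. Values are from mean coverage; the spacer minus psaA difference is smallest in chl27, and psaA minus rps14 reaches the inputs only in sig2-2.

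Of the other plastid genes of photosystem I and its assembly, psaC, psaI, psaJ and ycf4, 3 of 4 were below input in each of the 6 groups. Of all 113 genes, 53.1% were below input in Night, 59.3% in Day, 51.3% in sig2-2, 54.0% in chl27, 56.6% in chlm and 55.8% in Col0. The exception was psaJ, a small subunit, which was above input in Night at 0.27 (limma adjusted p 0.0457) and gave no call in the other groups. When centred, psaJ was called above input in all 6 groups, from 0.20 in sig2-2 to 0.84 in Day. The count below input was then 2 of 4 in Night and sig2-2 and 3 of 4 in the other groups. With scaling outside the inverted repeats it was 2 of 4 in sig2-2 and 3 of 4 in the others. In the changes, 3 of 4 rose at Night, where 58.4% of genes rose and 12.4% fell, 3 in sig2-2, where 53.1% rose and 33.6% fell, 3 in chl27, where 40.7% rose, and 0 in chlm. Against these shares, a count of 3 of 4 does not set the list apart. Centred, 3 rose at Night, 3 rose and psaJ fell in sig2-2, and 2 rose in chl27. At Night psaC, the iron-sulfur subunit, rose by 1.30 (limma adjusted p 1.88e-07), psaI by 1.16 (adjusted p 8.80e-06) and ycf4, another assembly factor, by 0.93 (adjusted p 7.35e-06), and psaJ was at 0.38 (adjusted p 0.0642). In sig2-2 psaC rose by 0.89, ycf4 by 0.69 and psaI by 0.65, and psaJ was at 0.10 (adjusted p 0.388).

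The other 11 genes of the small ribosomal subunit, the protein class of rps14, were all below input in each group, with a median of −1.0 in Night, −2.08 in Day, −0.51 in sig2-2, −0.80 in chl27, −1.13 in chlm and −1.23 in Col0. Of all genes, 51.3% to 59.3% were below input. When centred, 10 of the 11 were below input in Night, sig2-2 and chlm. Of these 11, 11 rose at Night, where 58.4% of all genes did, 11 in sig2-2 (53.1% of all genes), 10 in chl27 (40.7%) and 0 in chlm (0.0%). Relative to the median gene, which itself changed by 0.53 at Night, 0.36 in sig2-2 and 0.16 in chl27, the counts were 6 at Night, 8 in sig2-2 and 8 in chl27, and none fell. All 4 polymerase genes were below input in each group, beside the 51.3% to 59.3% of all genes named above, and when centred 3 of 4 were in Night, Day and chlm.

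Of 15 photosystem II genes, 3 were above and 7 below input in Night, where 35.4% of all genes were above, and 3 above and 8 below in Day (33.6% of all genes above). In seedlings 6 were above and 2 below in sig2-2 (31.9% of all genes above), 4 above and 7 below in chl27 (35.4%), 3 above and 9 below in chlm (34.5%) and 4 above and 8 below in Col0 (36.3%). At Night 5 rose and 2 fell, where 66 of all 113 genes rose and 14 fell. Centred, 0 rose and 8 fell, where 35 of all genes rose and 37 fell. The direction of this list thus turns with the scaling, which moves the counts of all genes too. In sig2-2 8 rose and 3 fell (60 and 38 of all genes), and centred 8 rose and 7 fell (50 and 50 of all genes). In chl27 3 rose and 1 fell (46 and 15 of all genes), and centred 0 rose and 3 fell (35 and 28 of all genes).

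On the far side of ycf3, the spacer toward trnS (ArthCt125, 44827 to 44913) was below input, at −0.64 in Night, −0.34 in Day, −0.32 in sig2-2, −0.23 in chl27, −0.38 in chlm and −0.41 in Col0, and did not change in a called way in any of the 4 comparisons (limma adjusted p 0.166 to 0.897). The trnS gene itself was at −0.12 ± 0.15 in Night, 0.56 ± 0.33 in Day, −0.09 ± 0.06 in sig2-2, 0.18 ± 0.02 in chl27, 0.27 ± 0.05 in chlm and 0.18 ± 0.08 in Col0 (SD, n = 3 each). trnS changed in a called way, by −0.68 at Night (limma adjusted p 0.00101) and by −0.27 in sig2-2 (adjusted p 0.00511), and it gave no call in chl27 (adjusted p 0.954) or chlm (adjusted p 0.978).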

How the data were processed

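The deposited tables hold coverage of the plastid genome by position, as whole numbers, for 12 leaf and 24 seedling libraries. Per the submitters' processing notes, the tools were Trim Galore 0.4.1, Bowtie2 2.2.8.9 and bedtools 2.25.0 with build TAIR10. Their settings are not given in the sources used here. Neighbouring positions share reads, so no count model was run and depth in reads is unknown. Gene positions came from the RefSeq table of TAIR10.1; the inverted repeats of each library mirrored about the annotated sum within 2 bp, and both copies were merged. Mean coverage was divided by the plastid total, scaled to a common total per kb, 1 was added and log2 taken; fold changes are on that scale. limma 3.58.1 in R 4.3.3 was fitted per table, with all libraries sharing 1 estimate of spread, over 113 genes, 88 spacers and 1296 windows of 100 bp, after a check on simulated data. Within-library differences were compared by exact permutation (scipy 1.17.1). Between plant groups this was done after subtracting the mean of each group's inputs, so the spread of the inputs is left out. For the spacer minus psaA the SD of the inputs was 0.25 in Day and 0.10 in chl27. Members, lists and tests were chosen with earlier results of these data known. The rule named all members, their neighbours, the other photosystem I genes and the 3 genes most like psaA and ycf3; a gene so named for ycf3 is not reported here. The peak window and the rps14 window were singled out after their values were seen. The peak window was taken as the spacer window with the highest Day value, so its rank in Day and its Night change rest on values that picked it. Alternatives were centring on the median gene, scaling outside the inverted repeats, pseudocounts of 0.1 and 10, length filters, median coverage, other window sizes, a replicate block and leaving out each replicate. Replicate numbers carry no stated pairing. No 2 replicates were identical. Sequences were not used here.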

Additional observations from a re-analysis of the deposited data

Results flagged for a closer look

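These changes passed the test of the difference between plant groups. ycf3 rose by 0.952 log2 units at Night against Day. In sig2-2 against Col0 the change was 0.616 for ycf3, 0.321 for psaA, 0.309 for psaB and 0.374 for the spacer. In chl27 against Col0 it was 0.339 for ycf3 and −0.405 for the spacer. The peak window upstream of psaA changed by −0.508 at Night, by 0.314 in sig2-2 and by −0.903 in chl27. The peak window was picked by its Day value, a choice that its Night test does not cover. Its Night call was lost when single replicates were left out. In sig2-2 the calls of psaA, psaB, the spacer and the peak window were lost on centring. In chl27 the calls of ycf3 and the spacer were lost when single replicates were left out. No cause was tested for any of these changes.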

How the results depend on the processing

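Depth in reads is unknown and 3 libraries per group bound the precision, so a difference inside the replicate spread was not detectable here. Of 1310 recomputed values, 1161 kept their direction and call, and both other pseudocounts changed none of 320. Centring libraries on the median gene moved the change at Night to −0.66 for psaA, −0.82 for psaB, −0.69 for rps14 and −0.99 for the spacer, all then past the threshold. It moved sig2-2 to −0.019 for psaA, −0.031 for psaB, −0.47 for rps14, 0.034 for the spacer and −0.026 for the peak window, of which rps14 passed. In chl27 it gave −0.26 for psaA, −0.26 for psaB and −0.27 for rps14, in chlm −0.30 for psaA, all past the threshold, with 1 gene called in chlm. Over input it reversed psaA to 0.35 in Day and 0.25 in Col0, and psaB to 0.43 in Day and 0.24 in Col0, and it brought past the threshold psaA at 0.23 and psaB at 0.21 in sig2-2 and the spacer at 0.39 in chl27 and 0.73 in chlm. By construction, centring subtracts the change of the median gene.

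Scaling outside the inverted repeats gave past the threshold at Night −0.55 for psaA, −0.71 for psaB, −0.58 for rps14 and −0.87 for the spacer, in sig2-2 −0.24 for rps14, in chl27 −0.22 for rps14, and in chlm −0.41 for psaA and −0.35 for psaB, with 3 genes called in chlm, and over input psaA at 0.15 in sig2-2 and the spacer at 0.30 in chlm. Among the 62 genes of at least 300 bp, where fewer were tested, calls were 52 at Night against Day, 55 in sig2-2, 3 in chlm (psaA at −0.36 and psaB at −0.30 among them), and over input 59 in Night, 58 in Day, 54 in sig2-2, 55 in chl27, 58 in chlm and 57 in Col0.

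Median coverage reversed rps14 over input to −0.15 in Night, −0.10 in chl27, −0.30 in chlm and −0.0014 in Col0, and its change in sig2-2 to 0.080. It also ended the call of rps14 over input in Day, at 0.17, and brought the chlm value past the threshold below input. It reversed the spacer minus psaA to −0.31 in sig2-2, −0.24 in chl27, −0.033 in chlm and −0.45 in Col0, and chl27 minus Col0 to 0.22. A median is blind to a peak of about 200 bp in a spacer of 726 bp. Windows of 200 bp brought the peak in chlm past the threshold, at −0.50.

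Replicate numbers were used as a block only as an alternative, since the labels state no pairing and same-numbered libraries did not deviate together in most group pairs (correlations of −0.14 to 0.62). The exceptions, with every correlation over 0.1, were ChIP and input in Day and in sig2-2, and sig2-2 with Col0 ChIP (0.34 to 0.42). There the block changed no call of a member. The comparison at Night also draws on Night libraries, which did not all deviate together with their inputs or with Day ChIP (−0.068 to 0.25). In it and elsewhere the replicate block brought past the threshold the spacer at Night (−0.43, adjusted p 0.0261 by limma), the peak window in chlm (−0.61, adjusted p 0.00666) and rps14 over input in Night (0.23, adjusted p 0.0416).

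Leaving out each replicate in turn gave −0.35 to 0.018 for psaA and −0.57 to −0.10 for psaB at Night, and −0.58 to −0.47 for the peak window. In sig2-2 it gave 0.25 to 0.37 for psaA, 0.25 to 0.36 for psaB and 0.24 to 0.41 for the peak window. In chl27 it gave −0.21 to 0.057 for psaA, −0.17 to 0.028 for psaB, 0.27 to 0.46 for ycf3, −0.54 to −0.32 for the spacer and 0 to 71 genes called, with 34 without replicate 3. In chlm it gave −0.028 to 0.17 for ycf3. Over input it gave −0.079 to 0.073 for the spacer and −0.0030 to 0.15 for rps14 in chl27, and −0.029 to 0.080 for rps14 in chlm.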
